A study of Rattus norvegicus with 28 samples.

Results

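The data described here are the 4 arrays, of 28 in the series, on which RNA of untreated rat hepatocytes was set against RNA of hepatocytes of the same rat that had received the solvent dimethyl sulfoxide (DMSO) at 0.1%. They were chosen by their label and come from 2 animals, adult female rats of the Sprague-Dawley stock called A and B, each in 2 dye orientations. Primary hepatocytes are liver cells taken fresh from the animal. Cells of both groups were kept for 48 h on Matrigel, a basement membrane gel, in medium with insulin, transferrin, selenium and 0.1 uM dexamethasone, a synthetic glucocorticoid. For the next 24 h they were given nothing more (untreated) or 0.1% DMSO, the vehicle against which the study's dioxin and furans were measured. RNA of 3 dishes of an animal was pooled before labelling, so each animal gave 1 sample a group and n is 2 animals throughout. Red (Alexa647) held the untreated RNA on 1 array of each animal and green (Alexa555) held it on the other; every ratio below is untreated over DMSO on the log2 scale.

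DMSO is a polar solvent that carries poorly soluble compounds into culture medium. At concentrations well above those of a vehicle it is known to help hepatocytes keep their differentiated state, and it scavenges radicals and draws water across membranes. Hepatocytes secrete most plasma proteins, clear ammonia through the urea cycle, make bile acids and oxidise foreign compounds with cytochromes P450, and in culture these functions decline with time. The comparison asks how far the vehicle by itself changed the transcriptome on which the other ratios rest.

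A few promoters are shown for reference, from RefSeq (GRCr8), each running from 250 bases before to 50 bases after the gene's start. Nptn and Stxbp6 are called genes. Alb, Slc10a1 and Pck1 are liver genes whose signals or ratios are described below. Capitals mark GTTAAT or, on the other strand, ATTAAC, the core letters of sites for HNF1, a liver transcription factor. Nptn lies at chr8:67892460-67892759 on the plus strand, Stxbp6 at chr6:67884289-67884588 on the minus strand, Alb at chr14:17906930-17907229 on the minus strand, Slc10a1 at chr6:106357895-106358194 on the minus strand and Pck1 at chr3:182348322-182348621 on the plus strand.
Nptn: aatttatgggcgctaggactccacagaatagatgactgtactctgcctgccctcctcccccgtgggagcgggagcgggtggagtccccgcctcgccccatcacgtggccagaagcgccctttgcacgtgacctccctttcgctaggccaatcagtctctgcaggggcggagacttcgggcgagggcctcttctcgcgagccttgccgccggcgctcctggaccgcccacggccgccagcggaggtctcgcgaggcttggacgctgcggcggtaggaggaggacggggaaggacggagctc
Stxbp6: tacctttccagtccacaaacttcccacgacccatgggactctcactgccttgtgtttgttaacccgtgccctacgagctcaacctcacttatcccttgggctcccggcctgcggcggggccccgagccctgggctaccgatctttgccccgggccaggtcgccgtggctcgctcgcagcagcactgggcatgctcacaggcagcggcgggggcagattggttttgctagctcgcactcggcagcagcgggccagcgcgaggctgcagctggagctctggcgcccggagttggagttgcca
Alb: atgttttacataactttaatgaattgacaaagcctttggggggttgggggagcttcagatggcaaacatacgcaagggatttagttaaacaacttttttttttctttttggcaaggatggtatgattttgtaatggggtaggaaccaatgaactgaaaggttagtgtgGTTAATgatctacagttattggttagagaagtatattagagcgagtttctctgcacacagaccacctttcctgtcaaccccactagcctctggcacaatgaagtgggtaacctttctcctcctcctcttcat
Slc10a1: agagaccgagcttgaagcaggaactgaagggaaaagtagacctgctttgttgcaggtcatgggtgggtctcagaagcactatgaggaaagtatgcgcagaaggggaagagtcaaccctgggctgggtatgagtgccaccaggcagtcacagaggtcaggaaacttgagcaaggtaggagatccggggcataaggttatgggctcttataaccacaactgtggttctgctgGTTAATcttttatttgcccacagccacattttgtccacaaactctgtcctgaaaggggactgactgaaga
Pck1: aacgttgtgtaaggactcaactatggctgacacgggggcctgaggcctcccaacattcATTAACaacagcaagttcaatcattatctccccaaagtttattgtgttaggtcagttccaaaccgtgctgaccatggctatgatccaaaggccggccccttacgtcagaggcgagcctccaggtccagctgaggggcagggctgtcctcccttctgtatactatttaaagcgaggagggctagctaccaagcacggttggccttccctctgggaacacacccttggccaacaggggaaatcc
GTTAAT or ATTAAC occurs once in each of the Alb, Slc10a1 and Pck1 windows, in neither of the called genes' windows shown, and in 7.45% of the 33469 promoters of this length. These liver genes were picked by hand and the windows of other liver genes were not counted, so this is no result about liver genes. GCGTG or CACGC, the core letters bound by the aryl hydrocarbon receptor (AHR), occurs in 29.7% of all promoters. It is in none of the 4 windows found for the 5 called genes with a symbol and in 7 of the 10 found for the 12 measured AHR battery genes. The windows of Nptn and Stxbp6 hold 29 and 22 CG pairs, against a median of 7 over all promoters and 2 in that of Alb. A match of letters is a description of the sequence, and the arrays measured no binding.

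Few genes separated untreated from DMSO cells. At a Benjamini-Hochberg adjusted p under 0.05 in limma's fit over all 7 groups of the series, 15 of 34848 genes were called (0.043%), 8 higher in untreated cells (0.023%) and 7 lower (0.0201%). The 8 higher genes were well above background in both channels of all 4 arrays, and all of them had a positive ratio on all 4. The 7 lower genes had log2 signals between 5.99 and 6.99 in the untreated channels. Only 2 of them were well above background on all 4 arrays in both channels, and only 1, LOC368043, which has no symbol, had 4 negative values. Among the 25576 genes well above background in both channels of all 4 arrays, the share called was thus 0.0391%, or 0.0313% higher and 0.00782% lower. With animal as a block, which the labels support since the same rats gave all groups, the fit called 26 genes, 18 higher and 8 lower, including all 15. The fit without the block, over the brighter genes alone, called 5 (4 higher and 1 lower). With Agilent's own ratios, or the deposited table of them, 184 genes were called, 114 higher and 70 lower, including all 15. An array-level fit had a dye term and, as a random block, the dye-swap pair of an animal in a group. It called 277, 250 higher and 27 lower, of which 8 were among the 15. Without animal A the count was 474 and without animal B 767; in these fits the lone untreated sample is assumed to vary like the other groups. Fits on the groups of the same Feature Extraction session or with the untreated group alone called 0 genes at the adjusted threshold, with 2908 and 2963 at an unadjusted p under 0.05 in limma. In the main limma fit 3725 genes lay under an unadjusted 0.05, 1669 of them higher in untreated cells. Nothing in the labels says that the dishes of an animal were independent cultures. The p-values of the main fit thus rest on the spread between pooled samples of 2 animals, estimated over all 7 groups. No exact test over 2 animals can go below p = 0.5.

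Ebag9, which encodes a Golgi membrane protein, was called higher. On the arrays with untreated RNA in red its ratio was 0.75 in animal A and 0.43 in animal B, and with untreated RNA in green 0.80 and 0.62. In the fit this was 0.65 ± 0.08 (n = 2 animals), 1.57-fold, with an adjusted p of 0.0393 in limma. This SE and those of the called genes below are limma's, with a spread estimated over all 7 groups. Its log2 signal was 10.85 and 11.09 for animal A untreated against 10.10 and 10.29 with DMSO, and 10.22 and 10.34 against 9.78 and 9.72 in animal B. Within each array the untreated channel was the brighter. A second probe of Ebag9, also well above background, gave 0.04. The call was lost with no background correction (adjusted p = 0.1 in limma), the stricter filter (0.0535), the mean of its probes (0.101) and without animal A (0.0664).

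Nptn, neuroplastin, a cell adhesion protein of the immunoglobulin family, had ratios of 0.60 and 0.70 in animal A and 0.30 and 0.41 in animal B. The fitted ratio was 0.50 ± 0.06 (limma's SE over all 7 groups, n = 2 animals), 1.41-fold, adjusted p = 0.0344 in limma. Both arrays of animal A lay above both of animal B. The other probes of Nptn gave 0.15 and 0.00, so this call too rests on 1 probe of several.

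Stxbp6, also called amisyn, which binds SNARE proteins in vesicle fusion, had 0.47 and 0.49 in animal A and 0.33 and 0.25 in animal B. It was 1.31-fold higher in untreated cells (0.38 ± 0.05, limma's SE over all 7 groups, n = 2 animals, adjusted p = 0.032 in limma). It has 1 probe on the array. The other 5 higher genes are transcripts without a symbol, with ratios between 0.37 and 0.75. In all 8 the mean ratio of animal A exceeded that of animal B.

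The lower genes showed another pattern. Sh3bgrl4, a member of the family of small SH3-binding glutamate-rich proteins, had ratios of -0.77 (animal A) and -0.64 (animal B) with untreated RNA in red, but 0.11 and 0.06 with it in green. Its log2 signal was between 5.98 and 6.92 in all 8 channels, where the median of the negative control spots was 5.88. Actc1, cardiac muscle actin, had -1.03 and -0.02 in animal B and -0.36 on its 1 usable array of animal A; the fit left animal A out for want of a pair, so its ratio of -0.52 is that of animal B alone. With the marked spots of animal A kept, the ratio was -0.26 and the adjusted p 0.342 in limma. All 7 lower genes thus had their negative values on the arrays with DMSO RNA in green and values near 0 on the dye-swapped ones. A part of dye, or of the day of Feature Extraction, which coincided with dye orientation, cannot be told apart in these values.

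**Figure D1:**
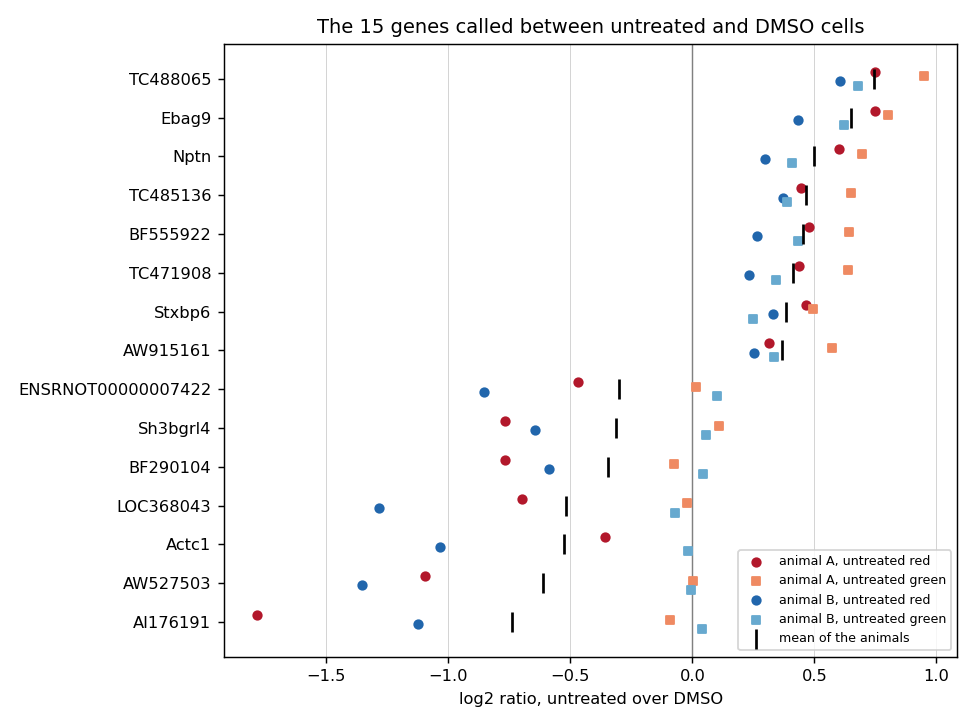
Log2 ratio of untreated over DMSO (x axis) on each of the 4 arrays for the 15 called genes (rows), circles for arrays with untreated RNA in red and squares for green, red shades for animal A and blue for animal B; the bar is the mean over animals (for Actc1, animal B alone). The 8 higher genes are positive on every array, whereas the 7 lower genes are strongly negative only in circles.

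Over all genes the ratios were small. Of the 34848 genes 96.2% had a mean within 0.2 of 0, no gene passed 2-fold, and the extremes were -0.90 and 0.75. The 5 and 95 percent quantiles were -0.14 and 0.12, and the median was -0.0012. The unadjusted 95% interval of limma, with a spread estimated over all 7 groups, reached a median of 0.108 to either side of a gene's ratio. No ratio of that size was called at the adjusted threshold, where the called ratios nearest 0 were -0.30 and 0.37. Fmr1, at 0.69, was not called. With the same processing and genes (25576 that were well above background here), mean ratios past 2-fold numbered 0 for untreated, 105 for TCDD 1 nM, 20 for TCDF 10 nM and 32 for PeCDF 2 nM, and at the lower doses 1 for TCDD 0.01 nM, 4 for TCDF 0.1 nM and 0 for PeCDF 0.02 nM, all against DMSO RNA of the same 2 rats.

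The spread of the ratios over genes was of the same size as that between their dye orientations. The SD over genes was 0.124 in animal A and 0.101 in animal B. The SD of the difference between dye orientations divided by 2 was 0.107 and 0.101. That difference holds array noise and the day of Feature Extraction besides dye, and correlated between the animals at r = 0.328 over genes. Across genes, which are not independent replicates, the ratios of the animals correlated at r = 0.204. The orientations of an animal correlated at r = 0.173 in animal A and 0.00576 in animal B, whereas arrays of the same orientation correlated between the animals at 0.201 (untreated in red) and 0.477 (untreated in green). Of 34793 genes with 4 values, 20.8% had the same sign on all 4 arrays, 11% above 0 and 9.8% below. For the genes well above background in both channels these shares were 23.1%, 12.8% and 10.3%. For 1892 genes with a second probe as bright as required, the ratios of the probes correlated at r = 0.341 over genes and differed by a median of 0.05.

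**Figure D2:**
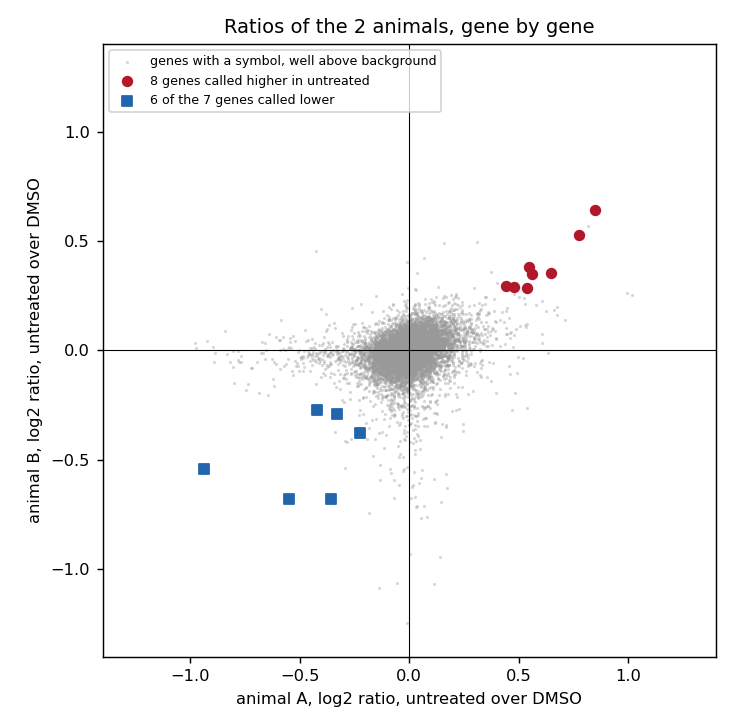
Log2 ratio of untreated over DMSO in animal A (x axis) and animal B (y axis), grey points for genes with a symbol that were well above background, red circles for the 8 genes called higher and blue squares for 6 of the 7 called lower (Actc1 has no value in animal A). Most genes form a round cloud within 0.2 of 0, and arms of points along either axis are genes whose ratio was away from 0 in a single animal.

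Larger ratios that were not called came mostly from animal A. Fmr1, the RNA-binding protein lost in fragile X syndrome, had 0.76 and 0.87 in animal A and 0.50 and 0.63 in animal B (mean 0.69, adjusted p = 0.066 in limma), but a second probe gave -0.02. Matr3, a nuclear matrix protein, had 0.97 and 1.07 in animal A against 0.20 and 0.31 in animal B (mean 0.64), with -0.14 and 0.02 for its other probes. Cdkn1b, the cell cycle inhibitor p27, had 0.88 and 1.11 against 0.18 and 0.35 (mean 0.63), with 0.02 for its other probe. In these genes the 4 arrays shared a sign while the probes differed. Mat2a, an enzyme that makes S-adenosylmethionine, had 0.23 and 0.40 in animal A and 0.45 and 0.54 in animal B (mean 0.40, adjusted p = 0.347 in limma), and its other probes gave 0.13 and 0.12. The rest of the 10 largest were Hnrnpll, Ces1d, Acp3, Tm4sf4, Ugt2b1 and Mgat2, with means between 0.40 and 0.44, and in each of these 6 animal A exceeded animal B.

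Of the 10 largest negative ratios, 7 rested mainly on 1 array of a probe of low signal. Tmem145 had -2.44 on the array of animal B with untreated RNA in red and between -0.05 and -0.01 on the rest. P4htm had -2.08 on that array and -0.16 to -0.09 on the rest; Dtx2 (-1.78) and Cst12 (-1.76) were as low only on the matching array of animal A. Their signals elsewhere were between 6.17 and 6.69, near the negative controls. The remaining 3 were brighter and alike in both orientations. Scd2, a stearoyl-CoA desaturase, had -0.73 and -0.76 in animal A and -0.21 and -0.16 in animal B, though its other probes gave -0.02 and -0.16. Gstp1, a glutathione transferase whose probes may also bind its near-identical copies, had -0.89 and -0.72 against -0.11 and -0.05, with -0.43 and -0.10 for its other probes. Ctnnb1, beta-catenin, had -0.22 and -0.37 in animal A and -0.46 and -0.61 in animal B, and -0.14 for its other probe. None of these passed the test (lowest adjusted p 0.239 in limma).

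No gene of 25 lists of liver functions and cell types was called. Their medians include genes whose ratios are clipped by saturation, described below. The lists named 398 genes, of which 376 were measured and 361 well above background in both channels of all 4 arrays. At an unadjusted p under 0.05 in limma there were 42 (11.2%), against 10.7% of all genes, and the median of a list ran from -0.08 to 0.09, with -0.0012 for all genes. On all 4 arrays 74 of the 376 measured genes were above 0 and 65 below. Over all genes with 4 values these shares were 11% and 9.8%, and over those well above background 12.8% and 10.3%. Both shares were thus larger among the list genes, which were chosen with earlier results of these data known. The counts of single lists below stand beside the same shares of all genes, 11% and 9.8%. Array-level fits raise the number of values by entering each array. With the dye-swap pair as a random block 10 list genes were called (2.66%), against 0.795% of all genes. With the day of Feature Extraction as a block 17 were called (4.52%), against 3.04% of all genes. The fit on animal averages with animal as a block called 0 list genes.

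**Figure D3:**
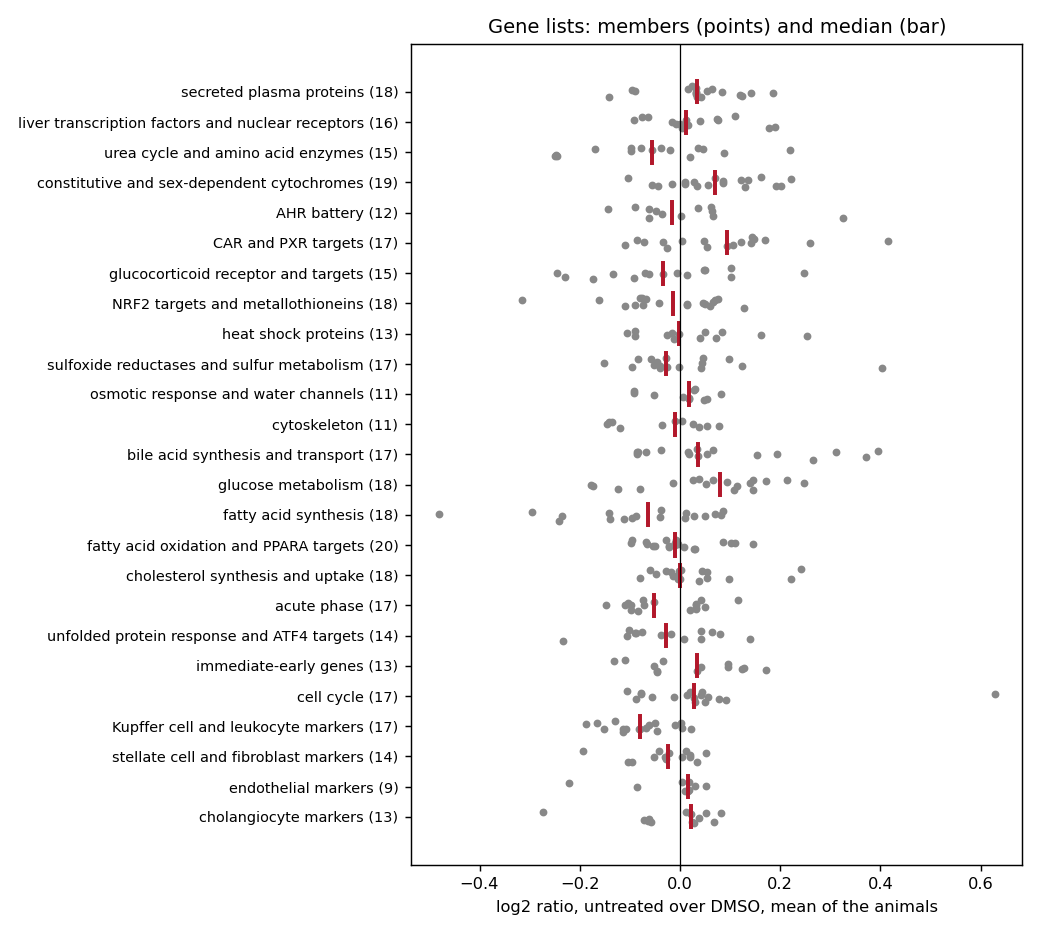
Log2 ratio of untreated over DMSO, mean of the animals (x axis), for every measured member (grey points) of 25 gene lists (rows, number measured in brackets), with the list's median as a red bar. Medians stay between -0.08 (Kupffer cell and leukocyte markers) and 0.09 (CAR and PXR targets).

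Several genes of bile acid uptake and synthesis had positive ratios on all 4 arrays. Of 17 measured genes none was called, and the median was 0.04. On all 4 arrays 7 were above 0 and 2 below, against 11% and 9.8% of all genes. Slc10a1 is the sodium-dependent bile acid carrier NTCP of the sinusoidal membrane. It was picked out after its values were seen. So were Baat and Abcb11 here, and below Cyp3a9, Cyp3a18, Nr1i3, G6pc1, Fads1, Slc2a5, C1qb, Apob and Egr1, among others. Slc10a1 had 0.52 and 0.64 in animal A and 0.19 and 0.23 in animal B (mean 0.39, adjusted p = 0.292 in limma). Slco1a1, an organic anion carrier, had 0.38 and 0.39 against 0.26 and 0.22 (mean 0.31, adjusted p = 0.265). Akr1d1, the 5-beta-reductase of bile acid synthesis, had 0.45 and 0.61 against 0.17 and 0.26 (mean 0.37, adjusted p = 0.137), the smallest of the list. Baat, which conjugates bile acids to amino acids, had 0.29, 0.43, 0.13 and 0.21. The hydroxylases and the canalicular pump were nearer 0. Cyp7a1, the rate-limiting enzyme of the classic pathway, had 0.15 with a 95% interval from -0.63 to 0.94, and Cyp8b1 and Cyp27a1 had -0.04 and -0.09. Abcb11, the bile salt export pump, had -0.07, and it was below 0 on both arrays of animal A only. In the array-level fits Akr1d1 was called with an adjusted p of 0.000147 (random block) and 6.1e-05 (day block), and Slc10a1, Slco1a1 and Baat were called in both. The day-block fit counts the dye-swap arrays of 1 pooled RNA as separate values. The random-block fit allows them a correlation, estimated at 0.39. These fits called 3.04% (day block) and 0.795% (random block) of all genes. None of the 4 genes was called on animal averages, with or without animal as a block.

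Targets of the xenobiotic receptors CAR and PXR, which turn on drug-metabolising genes, had the highest list median, 0.09. None of the 17 measured genes was called. On all 4 arrays 9 were above 0 and 2 below, against 11% and 9.8% of all genes. Ugt2b1, a glucuronosyltransferase, had 0.54 and 0.67 in animal A and 0.18 and 0.26 in animal B (mean 0.41, adjusted p = 0.276 in limma; 0.00953 and 0.00515 in the array-level fits). Cyp3a23-3a1, a major PXR-induced cytochrome, had 0.42, 0.47, 0.01 and 0.14 in the same order (mean 0.26). Cyp2b2 was at 0.05 and Cyp2b3 at 0.11. Cyp3a2 (0.15), Cyp3a9 (0.14) and Cyp3a18 (0.17) were positive on all 4 arrays, but cytochromes of a subfamily are near-identical and their probes may share signal. Nr1i3, the receptor CAR, had 0.19 and Nr1i2, the receptor PXR, 0.00.

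The AHR battery, the set of genes that dioxins induce, was close to its DMSO level. Of its 13 genes 12 were measured and none was called, the median was -0.02, 1 was above 0 on all 4 arrays and 2 were below. Cyp1a1, the classic AHR target, had 0.11 and 0.17 in animal A and -0.02 on both arrays of animal B, so the animals lay on either side of 0. Its mean was 0.06 with a 95% interval from -0.19 to 0.32 (adjusted p = 0.939 in limma). Its mean log2 signal was 14.80 ± 0.07 in the untreated and 14.73 ± 0.12 in the DMSO channel (SD over 4 arrays of 2 animals), without saturation. Cyp1a2 followed the same order with 0.17, 0.18, -0.05 and -0.04. Cyp1b1 was dim, with a signal of 6.16 against 6.21, and was well above background on only 2 of 4 untreated and 3 of 4 DMSO channels. Tiparp, an ADP-ribosyltransferase that restrains the AHR, had 0.22 and 0.27 in animal A and -0.46 and -0.28 in animal B, opposite in the animals, around a mean of -0.06.

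Among the other battery members Nfe2l2 was above 0 on all 4 arrays, and Ugt1a6 and Aldh3a1 were below 0 on all 4. Nqo1, a quinone reductase, had -0.09 and Ugt1a6 -0.14, with intervals from -0.50 to 0.32 and from -0.54 to 0.25. Aldh3a1 had -0.06 with the widest interval of the list, -0.87 to 0.75. Gsta2 (-0.04), Ugdh (0.07), Slc7a5 (0.00) and Cyp2s1 (0.04) were near 0. Nfe2l2, which encodes the oxidant sensor's transcription factor NRF2, had 0.46 and 0.60 in animal A and 0.04 and 0.19 in animal B (mean 0.32, adjusted p = 0.276 in limma; 0.0109 and 0.00568 in the array-level fits). Of 18 measured NRF2 targets and metallothioneins none was called, 2 were above 0 on all 4 arrays and 3 below, with a median of -0.01. Among them Gclc had 0.01, Gclm 0.13 and Hmox1 -0.07.

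**Figure D4:**
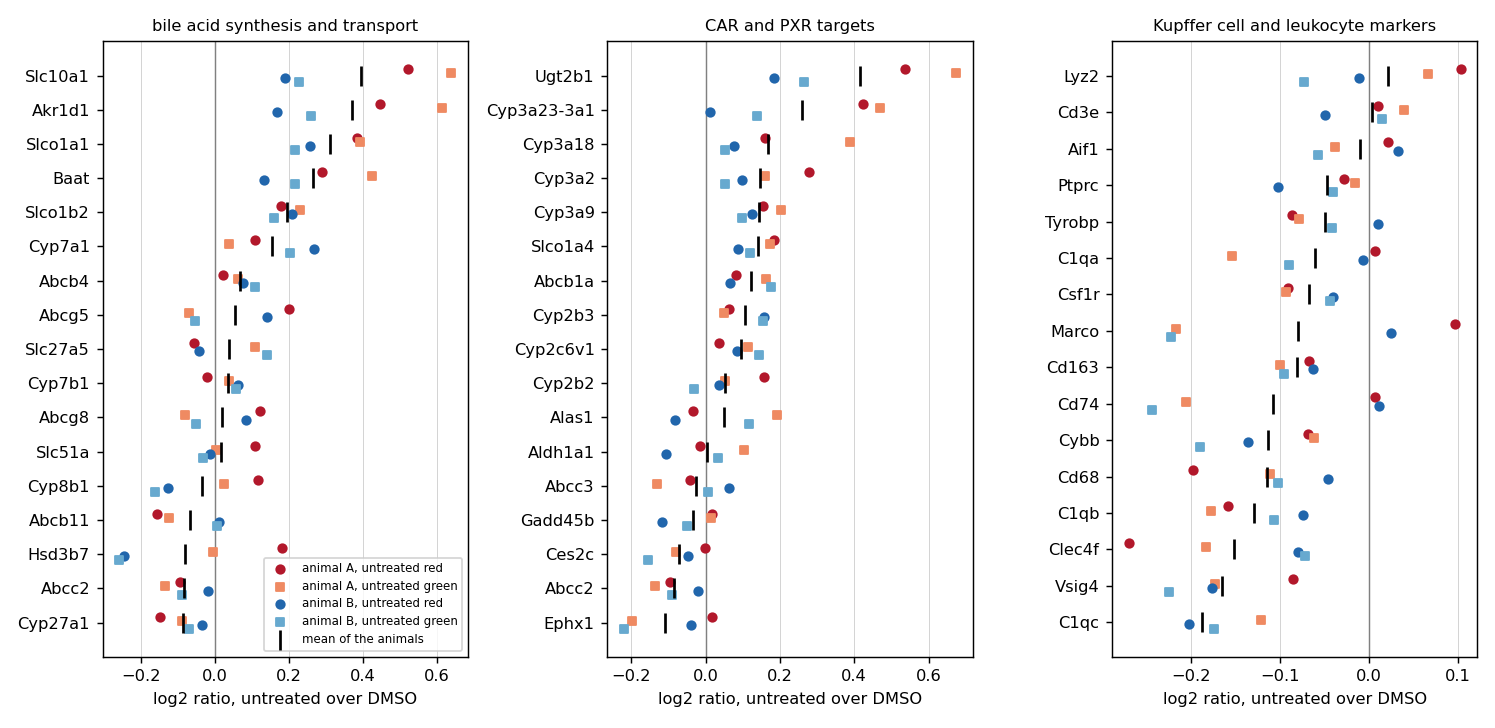
Log2 ratio of untreated over DMSO (x axis, a scale for each panel) on the 4 arrays for members of 3 lists (rows; 1 leukocyte marker is not drawn), with symbols as in the plot of called genes. Slc10a1, Slco1a1, Akr1d1 and the Cyp3a genes lie right of 0 on all arrays, and most Kupffer cell markers lie slightly left of 0.

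Genes that answer to glucocorticoids, fasting and amino acids had small values of either sign. Pck1, the entry enzyme of gluconeogenesis, was the most uniform, with -0.20, -0.12, -0.19 and -0.18 (mean -0.17, 95% interval from -0.24 to -0.11, adjusted p = 0.0968 in limma); the array-level limma fits called it, with adjusted p-values of 0.0196 and 0.000911. G6pc1, the last enzyme of the same pathway, had 0.35, 0.29, 0.20 and 0.15. Both ends of gluconeogenesis thus lay on opposite sides of 0 on every array. Tat, a glucocorticoid-induced transaminase, had -0.21, -0.33, -0.16 and -0.28, and Igfbp1 -0.25, -0.39, -0.09 and -0.19. Fkbp5, another glucocorticoid target, had -0.09 and Tsc22d3 -0.07, while the receptor Nr3c1 had 0.10. Of the 15 measured genes of the glucocorticoid list 3 were above 0 on all 4 arrays and 5 below, with a median of -0.03.

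Urea cycle and amino acid enzymes had a median of -0.06. Of 15 genes 1 was above 0 on all arrays and 6 below, against 11% and 9.8% of all genes. Cps1, the first enzyme of the urea cycle, had -0.19, -0.26, -0.23 and -0.32 (mean -0.25, 95% interval from -0.60 to 0.10). Ass1 had -0.40 and -0.37 in animal A and -0.13 and -0.09 in animal B (mean -0.25), and Otc and Asl had -0.10 and -0.17. Arg1, whose spots were saturated in 2 of 4 channels on each side, has only a clipped ratio. Cps1, Ass1, Otc and Asl were thus below 0 on every array without passing the test.

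Ratios of some fatty acid synthesis genes differed between the animals. In the fatty acid synthesis list (18 measured, median -0.06, none called, 3 above 0 on all 4 arrays and 5 below) Pnpla3, a lipid droplet protein that SREBP-1c induces, had -0.88 and -1.07 in animal A but 0.06 and -0.04 in animal B. Fasn, fatty acid synthase, had -0.50 and -0.57 against 0.08 and 0.05, and Fads1 -0.46 and -0.58 against -0.05 and -0.09. Acaca and Acly were at 0.01 in the mean. Srebf1 had 0.09. Cholesterol genes, 18 measured, had a median of -0.00068, with Hmgcs1 at 0.22 (0.24, 0.33, 0.14 and 0.18) and Idi1 at 0.24. Fatty acid oxidation genes, 20 measured, had a median of -0.01, and Cpt2 and Cpt1a were at -0.10 and -0.06. In the glucose list 8 of 18 genes were above 0 on all 4 arrays and 2 below, against 11% and 9.8% of all genes. Its median was 0.08, with Gckr at 0.17 and Slc2a5 at 0.21.

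Stress and cell volume genes had mostly small ratios, and none was called. Heat shock genes had a median of -0.0011 over 13, with Hspa1a at -0.09, Hspa8 at 0.05, Hspb1 at -0.11 and Hspa4 at 0.25. The osmotic list had 0.02 over 11 genes; Slc5a3 and Akr1b1, which raise intracellular osmolytes, had 0.02 and -0.09, and the water channel Aqp9 0.08. In the sulfur list (17 genes, median -0.03) Msra, a methionine sulfoxide reductase that also reduces DMSO, had 0.18, 0.01, 0.01 and -0.20. The means of that list ran from -0.15 to 0.40, the highest being Mat2a, described above. In the unfolded protein list (14 genes, median -0.03, 6 below 0 on all arrays and 3 above) Ddit3, the factor CHOP, had -0.16, -0.15, -0.57 and -0.06 (mean -0.23, adjusted p = 0.207 in limma). Immediate-early genes had a median of 0.03 over 13, with Jun at 0.10 and Egr1 at -0.04, and Fos was not well above background in any untreated channel.

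Plasma protein genes were at the top of the scanner's range. Of 18 such genes 16 were saturated in at least 1 channel, and 8 genes of the lists were saturated in all 8 channels: Tf, Fgb, Fgg, Hpx, Hp, Orm1, A2m and Serpina3n. Their ratios are clipped and not usable. Alb, albumin, was saturated in 4 of 4 untreated and 3 of 4 DMSO channels and is clipped likewise. Apob, which was not saturated, had -0.26, -0.28, -0.02 and -0.01, and Ahsg 0.09, -0.26, 0.06 and -0.25. The signals of the hepatocyte markers Alb, Ttr, Tf, Apoa1 and Serpina1 were between 15.66 and 16.01 on the log2 scale in the untreated channel. The other markers listed, Cps1 and Hnf4a, had 12.08 and 7.94 there and were well above background on all 4 arrays. The listed markers of the labelled cell type were thus present. Serpina1 had 15.66 ± 0.08 untreated and 15.59 ± 0.12 with DMSO (SD over 4 arrays of 2 animals).

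Mean basal signals of unsaturated liver genes were close in both channels. The SDs given here mix animals and dyes and leave out the pairing of the channels on an array. Within arrays, the untreated channel was lower for Cps1 on all 4 and higher for Cyp3a23-3a1 on all 4. Hnf4a, a regulator of hepatocyte identity, had a log2 signal of 7.94 ± 0.09 untreated and 7.86 ± 0.14 with DMSO (SD over 4 arrays of 2 animals). Cps1 had 12.08 ± 0.42 against 12.33 ± 0.39, Cyp2e1 11.57 ± 0.64 against 11.59 ± 0.56, and Cyp3a23-3a1 14.94 ± 0.41 against 14.67 ± 0.21. Cyp2c12, the female-specific cytochrome, had 11.90 ± 0.45 against 11.77 ± 0.30, and Cyp2c11, the male-specific one, 8.29 ± 0.18 against 8.21 ± 0.21. For Cps1, Cyp2e1, Cyp3a23-3a1 and Cyp2c12 both arrays of animal A lay above both of animal B in each channel, but not for Hnf4a, nor for Cyp2c11 in the untreated channel. Signals of different probes are not compared, since probes differ in how well they bind.

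Markers of other liver cells were detected. For Kupffer cells and leukocytes 17 of 17 markers were measured and 16 were well above background in all channels, with mean log2 signals from 6.10 to 12.10. None was called, none was above 0 on all 4 arrays and 8 were below, against 11% and 9.8% of all genes. The median was -0.08. C1qb, a complement subunit of macrophages, had -0.16, -0.18, -0.07 and -0.11, Clec4f, a Kupffer cell lectin, -0.27, -0.18, -0.08 and -0.07, and Vsig4 -0.08, -0.17, -0.18 and -0.22. The lymphocyte marker Cd3e was dim and at 0.00. In RNA of whole cultures fewer cells of a type and less RNA per cell cannot be told apart. The summed linear signal of the markers was 12137 untreated and 13298 with DMSO in animal A, and 17066 and 18113 in animal B. C1qc lacked a value on 1 array of animal A and is left out of the sums of that animal only. The sums are therefore not compared between the animals. Stellate cell, endothelial and bile duct markers had medians of -0.02, 0.02 and 0.02, and the endothelial Pecam1 and Tek were not well above background on most arrays. Their part in the ratios of the other genes was not tested.

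The spread over genes was larger between the animals than between untreated and DMSO cells. Over 25576 genes the difference in signal between animal A and animal B, averaged over both channels and orientations, had an SD of 0.247, against 0.0859 for untreated over DMSO, 2.88 times as large. The former is taken between arrays and the latter within arrays, so only the former holds the variation from array to array. Of 25548 genes with all values, 108 (0.423%) differed past 2-fold with the same sign in both channels and orientations, 47 higher in animal A and 61 in animal B. This count was 43 with no background correction and 238 with Agilent's processed signal. The difference seen in the untreated channel correlated over genes with that in the DMSO channel at r = 0.858, where the channels share an array, and that on arrays of one dye orientation with that of the other at r = 0.617. Of the 108 genes, 98 kept their sign in all 12 comparisons of DMSO channels on the other 24 arrays. The labels do not say whether these held the same DMSO RNA of each animal, so they are not independent support. With 1 animal each there is no test, and animal and its cell preparation cannot be told apart.

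Animal A had the higher signal for Itga1, the collagen-binding integrin alpha-1, by 1.75, which is 3.36-fold. In the 4 comparisons the difference was 1.80, 1.67, 1.84 and 1.68, and on the other arrays it ran from 1.49 to 1.81. Cyp2b3 was 2.55-fold and Adora1, an adenosine receptor, 2.54-fold higher in animal A, as were Ndufaf6 (2.83-fold), Fam117b (2.70-fold), Tp53inp1, Sv2b, Stbd1, Creg1 and Zfp354a (2.19-fold to 2.30-fold). Animal B had the higher signal for Cfap221, a protein of cilia, with a difference (animal A minus animal B) of -3.25 on the log2 scale, 9.48-fold, made up of -3.36, -3.12, -3.16 and -3.33; in animal A it was near background at a signal of 6.68. Ubd, an interferon-induced ubiquitin-like modifier, was 6.90-fold and S100a6, a calcium-binding protein, 4.06-fold higher in animal B. Mx2, also interferon-induced, and Krt20 and Anxa5 were 2.49-fold, 2.57-fold and 2.46-fold higher there. For Gstp1 and Pnpla3, and for others of the named genes such as Ubd, the gap between the animals was wider in the untreated channel. For Cyp2b3 it was narrower there. These differences were not tested. The gap of Gstp1 was -2.06 and -1.88 in untreated cells and -1.27 and -1.21 with DMSO. That of Pnpla3 was -2.03 and -1.73 against -1.08 and -0.70.

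**Figure D5:**
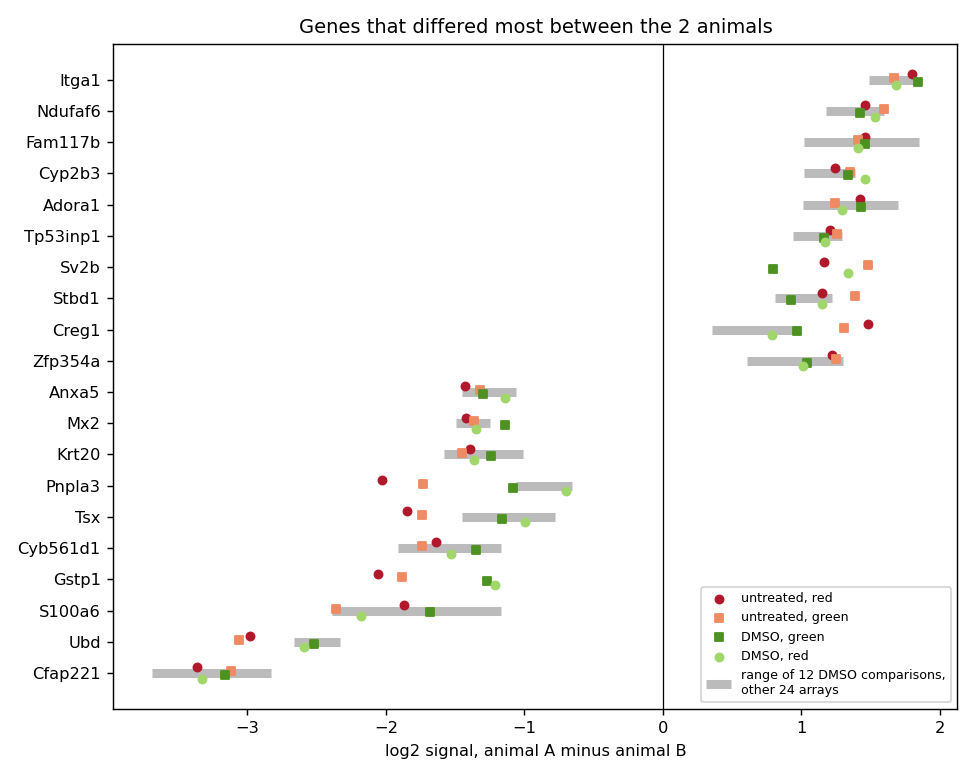
Log2 signal of animal A minus animal B (x axis) for the 10 genes with a symbol and the largest difference each way (rows), in the untreated and the DMSO channel of both dye orientations; grey bars span the 12 DMSO comparisons of the other 24 arrays (no bar for Sv2b and Gstp1, which had missing values there). The points of a gene lie on 1 side of 0 throughout. Pnpla3, Gstp1, Tsx and Creg1 are among the genes that lie farther from 0 in the untreated than in the DMSO channel.

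Some lists had more members higher in one animal than in the other. Over all genes 25.6% were higher in animal A and 28.3% higher in animal B in both channels and orientations. Of the immediate-early genes 10 of 12 were higher in animal A and 0 in animal B, with a median difference of 0.46, and Myc and Egr1 differed by 1.12 and 0.87. These and the other list genes named in this comparison of the animals were chosen after their values were seen. Of the constitutive and sex-dependent cytochromes 13 of 19 were higher in animal A and 2 in animal B (median 0.48), among them Cyp2c7 by 1.12 and Cyp2e1 by 1.00. For the unfolded protein list these counts were 11 and 1 of 14, with Trib3 at 1.12, and for CAR and PXR targets 11 and 3 of 17. In the other direction, 11 of 15 Kupffer cell and leukocyte markers were higher in animal B and 1 in animal A (median -0.36), with Vsig4 at -0.60 and C1qa at -0.56. Of the cytoskeletal genes 9 of 11 were higher in animal B, among them Flna at -1.23 and Krt8 at -0.64, and so were 9 of 18 cholesterol genes, with Dhcr7 at -1.06.

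The basis of these comparisons was a share of probes well above background of 72% to 87% in the untreated and 76.3% to 97.7% in the DMSO channels of the 4 arrays. Its median was 91.8% in green and 79.2% in red, but the gap depended on the orientation. With untreated RNA in red, green had 96.5% in animal A and 97.7% in animal B, against 76.8% and 81.4% in red. With untreated RNA in green, green had 87% and 72%, against 86.7% and 76.3% in red. The number of arrays limits the precision, and 72 spots on the 4 arrays were marked as outliers.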

How the data were processed

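The arrays are Agilent 2-colour rat arrays. Per the file headers, the authors deposited scanner output in which each spot has a mean and a background intensity for both channels and a log10 ratio of red over green made by Agilent's Feature Extraction (version A.7.5.1 in the headers, 9.1 in the submitters' processing notes). The deposited series table holds the same log10 ratios. Here the intensities were corrected with limma's normexp (offset 50) and normalized by loess within arrays, with control spots at weight 0. Outlier-marked spots were dropped, and spots of a probe averaged. Ratios were turned to untreated over DMSO on the log2 scale, and the dye-swap arrays of an animal were averaged, giving 14 ratios in 7 groups. Signals per channel were additionally scaled with Aquantile.

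Probes had to be well above background in the channel of the untreated or treated RNA on every one of a group's 4 arrays, or in the DMSO channel of at least 14 of 28, and the brightest probe stood for a gene name. This left 34848 genes, 15218 with a symbol from RefSeq. Group means were fitted with limma 3.58.1 (R 4.3.3), with 0.05 as the limit for the adjusted p (Benjamini-Hochberg). The labels give the same rats, A and B, in all groups, which is the source of the pairing used for the fit with animal as a block. Untreated and TCDD arrays were read by Feature Extraction in 1 session and furan arrays in another. Within the first session dye orientation coincided with day. The text names the called genes, the 10 largest uncalled genes with a symbol each way, the list genes and the 10 genes with a symbol and the largest difference between animals each way. The members and lists were chosen with earlier results of these data known. Scripts were tested on simulated data. Values of some list genes are not reported here.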

Additional observations from a re-analysis of the deposited data

Results flagged for a closer look

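Of 176 named genes with 4 values, 11 had 1 array whose ratio of untreated over DMSO stood far from the others. Chance marks about 1 gene in 20 at this limit, but that rate does not apply to this count. Tmem145, P4htm, Josd1, Dtx2, Cst12, Tmx4 and Nek7 were named for large negative mean ratios, which that 1 array made. For all 11 genes the array that stood apart was one with untreated RNA in red, that of animal A for 8 and that of animal B for 3. In animal B, Tmem145 had -2.44 against -0.05 to -0.01 on the rest, P4htm -2.08 against -0.16 to -0.09, and Josd1 -1.36 against -0.20 to -0.12. In animal A, Dtx2 had -1.78, Cst12 -1.76, Tmx4 -1.31 and Nek7 -1.27, with values between -0.21 and -0.01 on the other arrays. The endothelial markers Stab2 and Tie1 had -0.84 and -0.36 there, with values between -0.07 and 0.03 elsewhere. Mx2 had -0.16 against 0.11 to 0.13, and the bile duct channel Cftr 0.28 against 0.01 to 0.02.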

How the results depend on the processing

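The count of 15 called genes depended on the processing. It was 184 with Agilent's own ratios and with the deposited series table, 28 with no filter on dim probes, 5 with a stricter filter and 26 with animal as a replicate block. Array-level fits gave 277 (dye term, dye-swap pair as a random block) and 1060 (day of Feature Extraction as a block). Both enter each array as a value, and only the former allows for correlation within a pair. The limma fits on the untreated group alone and on the groups of the same session gave 0, with 2963 and 2908 genes at an unadjusted p under 0.05. Leaving out an animal gave 474 to 767. Counts stayed between 13 and 22 with no background correction, every probe on its own, the mean of a gene's probes, marked spots kept and a variance trend. The count of list genes called, 0 in limma's fit with 42 at an unadjusted p under 0.05, was 10 and 17 in the array-level fits, 0 to 4 when an animal was left out, and 0 in the other settings. The spread over genes of a single animal's ratios, 0.11 on the log2 scale as the mean of both animals, was 0.24 with Agilent's ratios and the deposited table and 0.057 with no background correction. The number of genes past 2-fold between the animals, 108, was 43 with no background correction, 238 with Agilent's processed signal and 103 without Aquantile. The causes were not tested. For 177 named genes, 2746 of 2823 values kept their side of the threshold, 18 lost a call, 59 gained one and 0 turned a called direction; a sign was compared only for called values. Ebag9 was not called with no background correction (adjusted p = 0.1), the stricter filter (0.0535), the mean of its probes (0.101) or without animal A (0.0664), all in limma. Nptn was not called with the mean of its probes (0.296). Signals near the negative controls and saturated spots limit what the arrays resolve.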
